A study of Mus musculus with 6 samples.

Results

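The chemokine genes described here are 10 of the 24062 genes counted in mouse retina: Ccl2, Ccl3, Ccl4, Ccl5, Ccl12, Cxcl9, Cxcl10, Cxcl12, Cxcl16 and Cx3cl1. They were taken by symbol, and all 10 had counts. The RNA came from retinae at postnatal day 21 on a C57BL/6 background (C57BL/6N in the study's methods), with 1 library from each of 3 Chx10-Cre Rb1/p107/Hells retinae (TKO) and 3 Chx10-Cre Rb1/p107 retinae (DKO). Both groups carry floxed Rb1 and lack p107 in the germline, and the TKO adds floxed Hells, a chromatin remodeler of the SNF2 family. Chx10-Cre acts in retinal progenitors in a mosaic pattern, so each retina also holds cells with intact floxed alleles, and microglia, which do not arise from these progenitors, keep their floxed genes. No source used here says that the retinae of a group came from separate animals, so p-values measure the spread between these samples.

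Chemokines are small secreted proteins that direct the movement of leukocytes through G-protein-coupled receptors, and they are sorted into families by the spacing of cysteines near the N-terminus. Most CC and CXC members are nearly silent in healthy tissue and are switched on in microglia, macrophages, glia or endothelium by interferon, by tumor necrosis factor or through toll-like receptors. A few are made constantly: Cx3cl1 is a membrane-bound ligand of neurons whose receptor in the retina is on microglia, and Cxcl12 guides migrating cells and growing axons.

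Among the inducible ligands Cxcl10, Ccl12, Ccl2 and Ccl3 were lower in TKO than in DKO retinae, whereas Ccl4, Ccl5 and Cxcl9 did not pass the test. The 3 constantly expressed ligands, Cx3cl1, Cxcl12 and Cxcl16, did not pass either, and their groups overlapped. Cxcl10 was 10.2-fold, Ccl12 7.22-fold and Ccl3 3.64-fold lower in TKO retinae, and Ccl2, with 3 counts in all TKO libraries together, was lower as well. Of the 10 ligands, 4 passed the test in this direction (edgeR's quasi-likelihood test, adjusted p no greater than 0.05), against 9.2% of the 16904 genes tested, and 0 passed in the other direction, against 7.35% of genes. A gene was called where the groups also differed by 1 or more on the log2 scale and its mean reached 10 normalized counts. By this rule 3 ligands were called lower (Cxcl10, Ccl12 and Ccl2), against 4.38% of genes, and 0 higher, against 1.97%. In 6 of the 10, every TKO library was below every DKO library, against 20.6% of genes. The median log2 change (TKO relative to DKO) of the 10 was -1.84, and that of all genes tested was -0.011. All 10 reached the minimum of 10 counts summed over the 6 libraries, Ccl2 and Cxcl9 only through their DKO counts. The mean of 10 for a call was likewise reached by Ccl2 and Ccl12 only through DKO, with TKO means of 1.20 and 7.86 normalized counts. For genes this low in TKO a call could hardly have been in the other direction. At an unadjusted p under 0.05, no ligand was higher, and DESeq2 also had 0 higher.

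**Figure D1:**
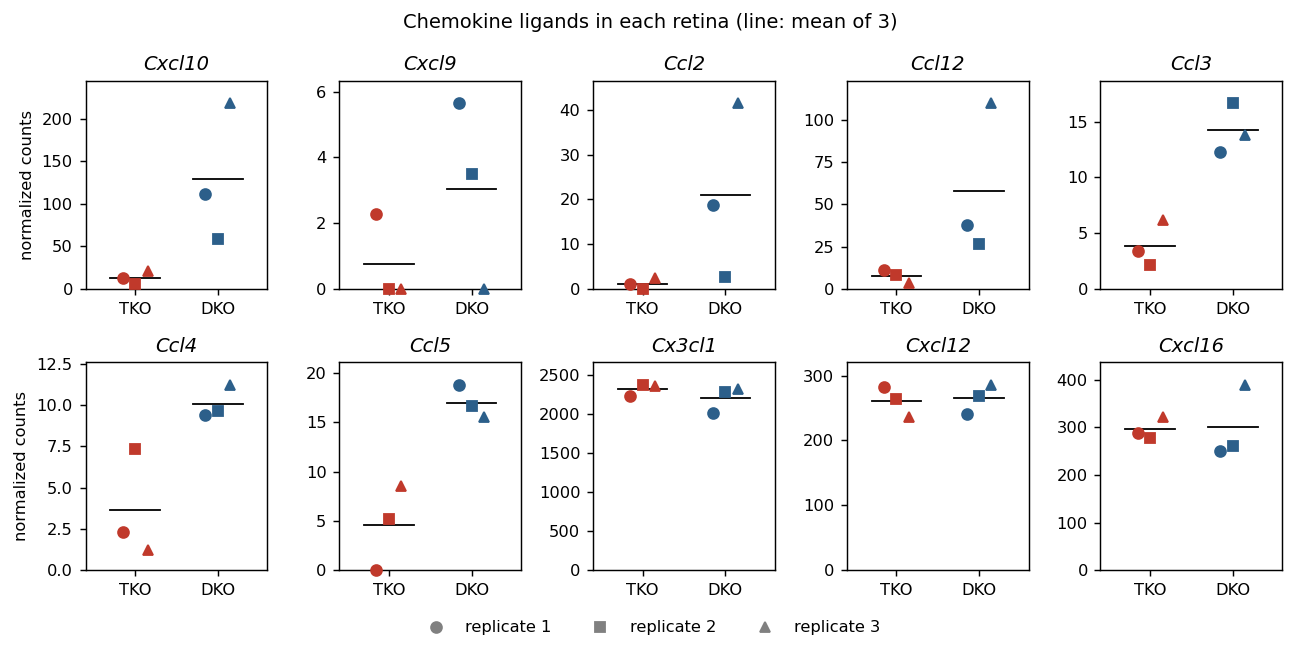
Normalized counts (vertical axes, each from 0) of the 10 ligands in each of 3 TKO (red) and 3 DKO (blue) retinae, with marker shapes for replicates 1 to 3 and lines at the group means. For Cxcl10 the 3 TKO retinae lie between 5.26 and 20.9 and the 3 DKO retinae between 58.7 and 218, whereas for Cx3cl1 the groups overlap.

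Library depth was 10343907 to 14203098 counts. Hells, the gene that tells the groups apart, had 60.8, 68.4 and 83.4 normalized counts in TKO and 678, 523 and 395 in DKO retinae, so each library followed its label (log2 change -2.91, adjusted p = 0.00359 from edgeR). Rb1 and Rbl1 (p107), altered in both groups, had log2 changes of 0.34 (adjusted p = 0.0388 from edgeR) and 0.13 (adjusted p = 0.839 from edgeR). Rb1 passed only where TKO replicate 3 was left out or all 6 retinae were used, and its adjusted p reached 0.129 where DKO replicate 2 was left out. Here and below, values are normalized by TMM to a library of average size and listed in the order of replicates 1, 2 and 3.

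Ccl2 and Ccl12 lie on chromosome 11 of GRCm38, from 82035571 to 82037453 and from 82101845 to 82103400, both on the plus strand. Farther along the same chromosome are Ccl5 (83525778 to 83530518, minus strand), Ccl3 (83647844 to 83649355, minus strand) and Ccl4 (83662584 to 83664683, plus strand). Chromosome 5 holds the neighbours Cxcl9 (92321347 to 92328079) and Cxcl10 (92346638 to 92348889), both on the minus strand. Thus the 7 inducible ligands sit in clusters of related genes, and the other 3 do not sit with them. Cxcl16 is also on chromosome 11 (70453983 to 70459984, minus strand), Cxcl12 is on chromosome 6 (117168535 to 117181367, plus strand) and Cx3cl1 is on chromosome 8 (94772009 to 94782427, plus strand). Exons of Cxcl10 overlap those of Art3 on the other strand over 133 of 2252 bp, and exons of Cxcl16 overlap those of Zmynd15 over 552 of 3021 bp. The strand setting of the counting is not given in the sources used here, so reads in these stretches may be shared. No stretch of 50 bases in an annotated transcript of the other 9 ligands occurs in a transcript of another gene, and for Cxcl9 0.472% of such stretches do.

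RefSeq promoter windows (build GRCm38.p6, 250 bases before to 50 after the transcription start) were matched for 6 of the 10 ligands: Cxcl9, Cxcl10, Cxcl12, Cx3cl1, Ccl12 and Ccl3. They were searched on both strands for 4 motifs: an interferon-stimulated response element (GAAA, any 2 bases, GAAA), a gamma-activated site (TTCNNNGAA), a kappaB site (GGGA, any base, TT, any base, CC) and an E2F site (TTTNGCGC). Of 32851 promoters of this length, these are held by 3.44%, 8.30%, 1.20% and 1.38%. Only the window of Cxcl10, the ligand with the smallest adjusted p, held any of them, namely 1 response element and 1 kappaB site, which start 213 and 103 bases before the transcription start and do not overlap. Looser forms of these motifs were not searched. The 250 bases upstream of Cxcl10 (chr5:92348890-92349139, minus strand) are shown with both matches in capitals.
Cxcl10: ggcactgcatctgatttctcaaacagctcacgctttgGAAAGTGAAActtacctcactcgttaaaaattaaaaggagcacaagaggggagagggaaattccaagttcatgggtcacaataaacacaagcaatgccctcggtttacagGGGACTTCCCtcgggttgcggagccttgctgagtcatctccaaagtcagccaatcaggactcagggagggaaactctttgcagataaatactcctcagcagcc

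HELLS takes part in maintaining DNA methylation, which in mammals falls on CG pairs, and methylation was not measured in these libraries. In the paper, a dot blot showed no change in global methylation between TKO, DKO and control retinae of the same age. Few regions changed in chromatin accessibility between TKO and DKO cells there. The paper proposes that the expression changes likely do not depend on chromatin remodeling. A link between CG pairs and the ligands' changes was not tested here. The windows of Ccl12, Ccl3, Cxcl9 and Cxcl10 hold 2, 3, 4 and 10 CG pairs, and those of Cx3cl1 and Cxcl12 hold 19 and 20, with a median of 7 over all promoters. To show both ends of this range, the 250 bases upstream of Ccl12 (chr11:82101595-82101844, plus strand), which fell, and of Cxcl12 (chr6:117168285-117168534, plus strand), which did not pass the test, are given with CG pairs in capitals.
Ccl12: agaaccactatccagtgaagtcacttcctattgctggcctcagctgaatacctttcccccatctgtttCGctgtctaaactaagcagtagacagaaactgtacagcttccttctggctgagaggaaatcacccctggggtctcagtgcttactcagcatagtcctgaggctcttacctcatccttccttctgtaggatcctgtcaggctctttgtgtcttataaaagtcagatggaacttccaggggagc
Cxcl12: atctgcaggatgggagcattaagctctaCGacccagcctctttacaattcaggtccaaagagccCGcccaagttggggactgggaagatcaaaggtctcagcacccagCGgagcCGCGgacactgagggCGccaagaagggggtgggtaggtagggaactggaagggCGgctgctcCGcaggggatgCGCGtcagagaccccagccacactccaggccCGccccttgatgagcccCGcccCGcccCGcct

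Cxcl10 is an interferon-induced ligand of Cxcr3, the receptor of activated T and NK cells. It had 12.6, 5.26 and 20.9 normalized counts in TKO and 112, 58.7 and 218 in DKO retinae. The highest TKO retina was below the lowest DKO retina, and DKO replicate 3 had 2.56 times the mean of the other 2 DKO retinae. The log2 change was -3.34 (standard error 0.589, adjusted p = 0.0106 from edgeR), or 12.9 ± 7.80 against 130 ± 81.3 normalized counts (SD, n = 3 each). DESeq2 gave an adjusted p of 2.7e-08. The decrease passed in 5 of 6 fits with 1 retina left out and missed the threshold without TKO replicate 2 (edgeR's adjusted p was then just above 0.05). Without DKO replicate 3 the log2 change was -2.74 (adjusted p = 0.00982 from edgeR).

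Cxcl9, the neighbouring ligand of the same receptor, was near the limit of counting, with 2, 0 and 0 counts in TKO libraries against 6, 4 and 0 in DKO libraries. The groups overlapped at 0. The ratio of summed counts, DKO over TKO and scaled for library size, was 3.92, with an exact 95% interval from 0.836 to 36.8 that covers counting error only, and the adjusted p was 0.389 from edgeR. A difference in Cxcl9 was not detectable at this depth. Cxcr3 itself had 1 count in TKO and 1 in DKO libraries and was not tested.

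Ccl2 and Ccl12 are monocyte attractants that act on Ccr2. Ccl12 had 11.5, 8.42 and 3.68 normalized counts in TKO and 37.6, 26.3 and 110 in DKO retinae. The groups did not overlap, and DKO replicate 3 was again the highest, at 3.43 times the mean of the other DKO retinae. Ccl12 fell by 2.85 on the log2 scale (standard error 0.647, adjusted p = 0.0222 from edgeR and 0.000144 from DESeq2). Without DKO replicate 3 the log2 change was -1.99 (adjusted p = 0.0234 from edgeR). Its adjusted p from edgeR rose to 0.0521 and 0.0853 when TKO replicate 1 or 2 was omitted, and to 0.0515 when DKO replicate 1 was.

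Ccl2 had 1, 0 and 2 counts in TKO libraries against 20, 3 and 48 in DKO libraries. The lowest DKO library was close to the TKO libraries, so the groups were separated by 1 count. The ratio of summed counts, DKO over TKO, was 18.6, with an exact 95% interval from 6.10 to 92.1 for counting error only. The test passed narrowly (adjusted p = 0.0481 from edgeR) and passed in 1 of the 6 fits with 1 retina left out, without DKO replicate 2 (0.0383). In the other 5 fits the adjusted p from edgeR was 0.130, 0.151 and 0.0579 when TKO replicate 1, 2 or 3 was omitted, and 0.106 and 0.0954 when DKO replicate 1 or 3 was. The log2 change ran from -4.97 without TKO replicate 3 to -3.07 without DKO replicate 3, and was -3.47 without TKO replicate 2. With all 6 retinae the adjusted p of Ccl2 was 0.0055 from DESeq2, for which no retina was left out. Thus the call on Ccl2 depended on single libraries, whereas its direction did not.

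Ccl3, Ccl4 and Ccl5 attract T cells, monocytes and NK cells through Ccr1 among other receptors. Ccl3 had 3, 2 and 5 counts in TKO libraries against 13, 19 and 16 in DKO libraries, and the groups did not overlap. Its log2 change was -1.87 (standard error 0.471, adjusted p = 0.0315 from edgeR), and with a mean of 8.94 normalized counts it stayed below the minimum for a call. Unlike Ccl2, Ccl12 and Cxcl10, Ccl3 was even across the DKO retinae, with a ratio of 1.36 between the highest and the lowest. Its adjusted p was 0.0623 from DESeq2. With 1 retina left out it passed without TKO replicate 3 (0.0211 from edgeR) and without DKO replicate 3 (0.0486 from edgeR). It was 0.0966 and 0.113 when TKO replicate 1 or 2 was omitted, and 0.0721 and 0.113 when DKO replicate 1 or 2 was.

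Ccl4 had 2, 7 and 1 counts in TKO libraries against 10, 11 and 13 in DKO libraries. Ccl5 had 0, 5 and 7 counts in TKO libraries against 20, 19 and 18 in DKO libraries. For both genes every TKO library was below every DKO library, yet neither passed the test over all genes. Ccl4 had a log2 change of -1.40 with a 95% interval from -2.74 to -0.058 (adjusted p = 0.137 from edgeR). Ccl5 had -1.87 with an interval from -3.41 to -0.32 (adjusted p = 0.0943 from edgeR), and it passed without TKO replicate 3 (0.0492 from edgeR).

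Cx3cl1 was by far the most abundant of the ligands, with 2232, 2373 and 2351 normalized counts in TKO and 2019, 2275 and 2321 in DKO retinae. The groups overlapped. The log2 change was 0.073 with a 95% interval from -0.12 to 0.26 (adjusted p = 0.580 from edgeR), and it was -0.083 when libraries were scaled by their totals only, a scaling that moved the median log2 change of all genes from -0.011 to -0.17. A difference beyond 1 in either direction on the log2 scale lies outside this interval.

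Cxcl12, the ligand of Cxcr4 and Ackr3, had 282, 264 and 237 normalized counts in TKO and 241, 268 and 286 in DKO retinae. Its log2 change was -0.021 with a 95% interval from -0.30 to 0.26 (adjusted p = 0.922 from edgeR). Cxcl16, a membrane-bound ligand of Cxcr6 that also acts as a scavenger receptor, had 289, 277 and 322 in TKO and 250, 260 and 389 in DKO retinae. Its log2 change was -0.022 with an interval from -0.43 to 0.39 (adjusted p = 0.945 from edgeR). Both sets of values overlapped between the groups, and DKO replicate 3 was the highest of the 6 retinae for both. The sign of either fold change turned with 1 retina left out.

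**Figure D2:**
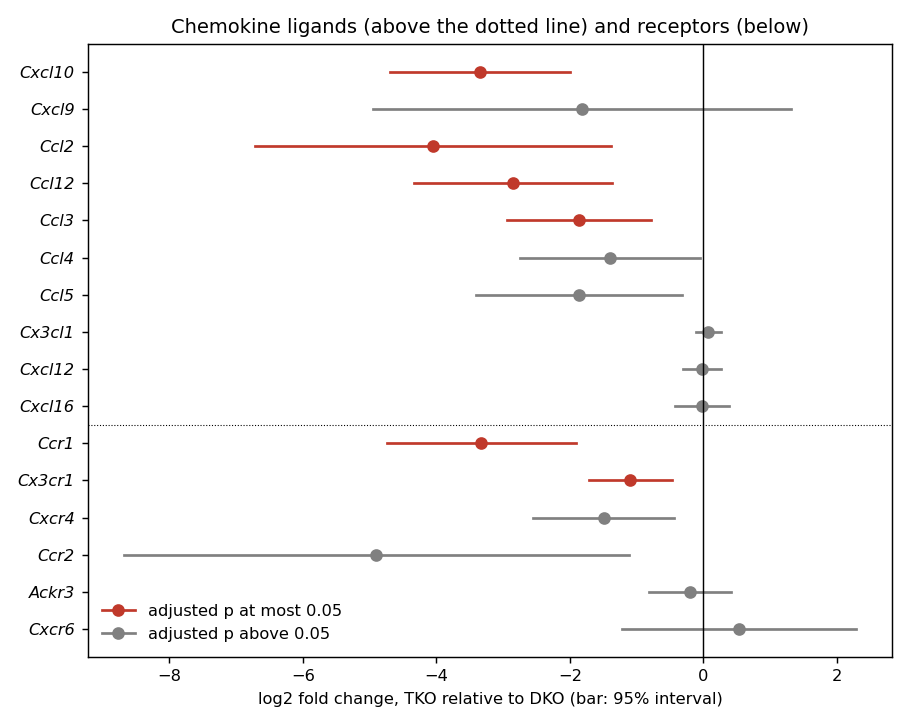
Log2 fold change of TKO relative to DKO retinae (horizontal axis) for the 10 ligands and 6 of their receptors, with 95% intervals from the edgeR fit. Red marks genes with an adjusted p of at most 0.05. Intervals of Cx3cl1, Cxcl12 and Cxcl16 are narrow around 0. Those of Ccl2, Ccr2 and Cxcl9 are the widest, and that of Cxcl9 spans 0 (-4.95 to 1.31).

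RPKM, here counts divided by exon length and by TMM-scaled library size, allow levels of different genes to be set side by side and gave an order among the ligands. In TKO retinae Cx3cl1 came first (46.6 ± 1.53), before Cxcl16 (7.74 ± 0.605) and Cxcl12 (2.52 ± 0.220; SD, n = 3 each), and the ranges of these 3 did not touch. Ccl12 was at 1.16 ± 0.578 on this scale, and below Ccl12 the ranges of neighbours in the order overlapped. In DKO retinae Cx3cl1 was at 44.4 ± 3.28, and Ccl12 (8.52 ± 6.66), Cxcl16 (7.85 ± 2.03) and Cxcl10 (4.55 ± 2.86) followed with overlapping ranges. Cxcl12 was at 2.56 ± 0.218, and Ccl3, Ccl2, Ccl5 and Ccl4 lay between 1.21 and 1.47 in DKO retinae. Cxcl9 was last in both groups, at 0.0799 RPKM in DKO and less in TKO retinae. Annotated exon lengths run from 537 bp for Ccl12 to 8176 bp for Cxcl12, and a gene that uses only part of its annotated exons is set too low on this scale.

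**Figure D3:**
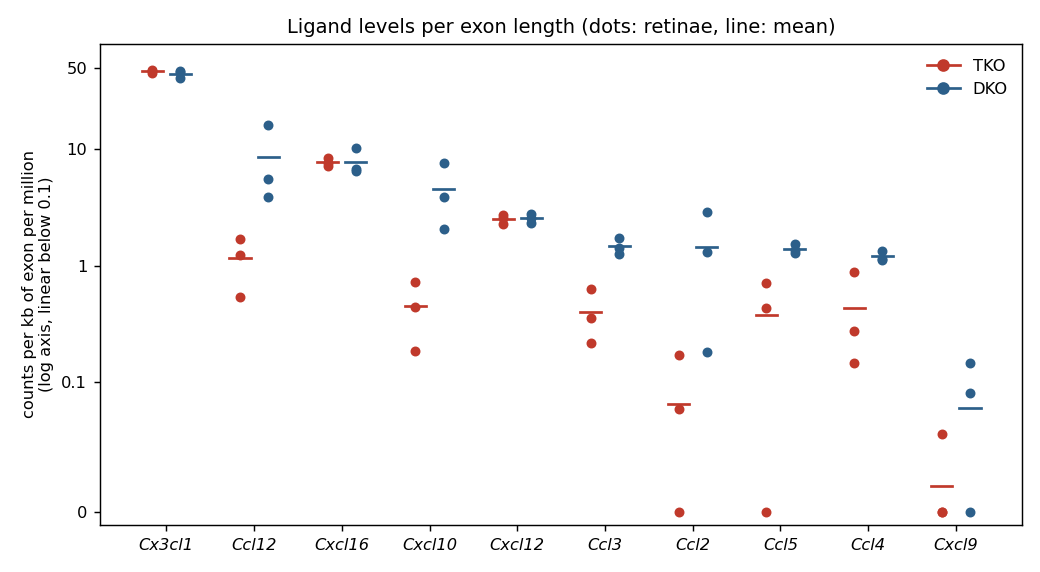
RPKM, counts per exon length and scaled library size (vertical axis, logarithmic above 0.1 and linear below) of the 10 ligands in TKO (red) and DKO (blue) retinae. Dots are retinae and lines are means. Ccl12 and Cxcl10 stand among Cxcl16 and Cxcl12 in DKO retinae and below them in TKO retinae.

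The 7 inducible ligands together made up 33.3, 28.4 and 43.0 normalized counts in TKO and 215, 134 and 410 in DKO retinae. These are small shares of the summed counts of the 10 ligands, other chemokines not included. Cx3cl1, Cxcl12 and Cxcl16 held at least 98.5% of the counts of the 10 ligands in TKO and 88.0% to 95.4% in DKO retinae.

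The DKO retinae were not alike in these genes. Replicate 3 had the highest value of Ccl2, Ccl12 and Cxcl10, at 3.86, 3.43 and 2.56 times the mean of DKO replicates 1 and 2. It had 0.957 times that mean for Ccl3 and 0.877 times for Ccl5. Gfap, a marker of reactive glia that was looked at after its values were seen, was at 5595, 3948 and 11556 normalized counts in the DKO retinae, also highest in replicate 3. Its part in the spread of the ligands was not tested.

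The genes whose pattern was most like that of Cxcl10, by Pearson's r of log2 normalized counts over the 6 libraries and among 14975 genes with a mean normalized count of at least 10, were Acot9 (0.997), Gbp2 (0.991), Sec13 (0.990), Tap2 (0.987) and Lsm2 (0.986). Of these, Gbp2, an interferon-induced GTPase, and Tap2, a peptide transporter for MHC class I, passed the test, with log2 changes of -1.50 (adjusted p = 0.0106 from edgeR) and -1.11 (adjusted p = 0.0106 from edgeR). Gbp2 missed the threshold narrowly (0.0532 from edgeR) when TKO replicate 2 was omitted. Acot9, Sec13 and Lsm2 had log2 changes of -0.35, -0.17 and -0.44. The 6 points fall into 2 genotype groups, so these correlations are a description of shared ordering.

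The receptors of these ligands were examined from a list of 23 chemokine receptor genes, of which 16 were tested. Lower values in TKO passed the test for 3 and higher values for 0, and the 3, with Ccr1 and Cx3cr1 among them, were also called, against 9.2% of all genes that passed lower and 4.38% that were called lower. The median log2 change of the 16 was -0.20. Of the 16, 3 reached the minimum of 10 counts only with their DKO counts, so they could hardly have passed higher. Ccr1 had 2.29, 4.21 and 6.14 normalized counts in TKO and 20.7, 33.3 and 75.1 in DKO retinae, and the groups did not overlap. Its log2 change was -3.33 (standard error 0.619, adjusted p = 0.0122 from edgeR), and without TKO replicate 2 the adjusted p was 0.0586.

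Cx3cr1, the microglial receptor of Cx3cl1, had 159, 232 and 349 normalized counts in TKO and 552, 627 and 395 in DKO retinae (log2 change -1.09, adjusted p = 0.0311 from edgeR). The groups did not overlap, and Cx3cr1 passed in 2 of the 6 fits with 1 retina left out. It passed only when replicate 3 of either group was the one omitted, and its largest adjusted p from edgeR in the other fits was 0.115. Cx3cr1 was lowest among the DKO retinae in replicate 3, where Cxcl10 and Ccl12 were highest.

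Ccr2, the receptor of Ccl2 and Ccl12, had 0, 1 and 0 counts in TKO libraries against 0, 13 and 38 in DKO libraries. The groups overlapped at 0, and the adjusted p was 0.0774 from edgeR and 0.0167 from DESeq2. Cxcr4 had 27.5, 46.3 and 122 normalized counts in TKO and 187, 225 and 135 in DKO retinae, with a log2 change of -1.50 (adjusted p = 0.0597 from edgeR). Over the alternatives the adjusted p of Cxcr4 ran from 0.00321, when TKO replicate 3 was omitted, to 0.281. That of Ccr2 was 0.0373 when DKO replicate 1 was omitted. Ackr3, the scavenging receptor of Cxcl12, and Cxcr6 had log2 changes of -0.20 (95% interval -0.82 to 0.42) and 0.53 (-1.23 to 2.28), and neither passed. Cxcr6 had at most 4 counts in a library.

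A list of 28 other chemokine ligands held 14 that could be tested, 5 of them through their DKO counts. Of these, 1 passed lower and 1 passed higher, against 9.2% and 7.35% of all genes tested. With 14 genes tested, 1 in either direction is close to these shares. Of the 28, 6 had 0 counts in each library. Ccl6, a CC ligand of myeloid cells, had 4.59, 10.5 and 9.82 normalized counts in TKO and 41.4, 34.1 and 17.3 in DKO retinae (log2 change -1.87, adjusted p = 0.0287 from edgeR). Ccl28, an epithelial ligand, went the other way, with 35.6, 40.0 and 25.8 in TKO and 19.8, 9.63 and 12.95 in DKO retinae (log2 change 1.26, adjusted p = 0.0443 from edgeR). The groups did not overlap for either gene. With 1 retina left out, Ccl6 passed when replicate 3 of either group was omitted (otherwise at most 0.0988 from edgeR) and Ccl28 when TKO replicate 3 was (otherwise at most 0.150), and with libraries scaled by totals Ccl28 no longer passed.

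Genes that relay the receptors' signal, cut or trim the ligands, and induce them were taken from 4 further lists. Over all genes tested, 9.2% passed lower and 7.35% higher, the shares beside which the counts of these and the marker lists stand. Of 19 relay genes tested, 6 passed lower and 1 higher, with a median log2 change of -0.37. Of the 19, 1 reached the minimum of 10 counts only with its DKO counts. Pik3cg, the phosphoinositide kinase downstream of these receptors in leukocytes, fell by 1.67 (adjusted p = 0.00706 from edgeR), and Dock2, which activates Rac in migrating leukocytes, fell by 1.24 (adjusted p = 0.0134 from edgeR). Gnb1, which also encodes the beta subunit of rod transducin, rose by 1.37 (adjusted p = 0.0110 from edgeR). Neither Dock2 nor Gnb1 passed when TKO replicate 2 or DKO replicate 1 or 2 was omitted (at most 0.0628 and 0.0570). Of 10 ligand processing genes, 2 passed lower and 0 higher, with a median of -0.33. These 2 were Mmp14, a membrane-bound metalloproteinase, at -1.51 (adjusted p = 0.00480 from edgeR), and Ctss, a cathepsin of microglia and macrophages, at -0.95 (adjusted p = 0.0252 from edgeR). Ctss passed only when replicate 3 of either group was omitted (otherwise at most 0.100). Adam10, which sheds Cx3cl1 and Cxcl16 from the membrane, had a log2 change of -0.13 and did not pass (adjusted p = 0.372 from edgeR).

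Of 14 inducing cytokines and receptors tested, 4 passed lower and 0 higher, with a median log2 change of -0.81. Of the 14, 2 reached the minimum of 10 counts only with their DKO counts, so they could hardly have passed higher. Tnfrsf1b, a receptor of tumor necrosis factor, fell by 1.82 (adjusted p = 0.00752 from edgeR), Tlr2 fell by 2.16 (adjusted p = 0.0122 from edgeR) and Tlr3 fell by 0.64 (adjusted p = 0.0321 from edgeR). Tlr2 lost its pass without TKO replicate 2 (0.0580) or DKO replicate 2 (0.0503), and Tlr3 without replicate 1 or 2 of either group (at most 0.114). Ifnar1, a chain of the type I interferon receptor, had a log2 change of -0.14 (adjusted p = 0.192 from edgeR). Tnf and Il1b were looked at after their values were seen. Tnf had 0 counts in each TKO library and 3, 2 and 6 in DKO libraries, and Il1b had 1, 1 and 4 against 5, 10 and 24, and edgeR's adjusted p was 0.0674 for Tnf and 0.0877 for Il1b. The interferon genes Ifng and Ifnb1 had at most 1 count in a library and were not tested.

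Of 17 interferon and NF-kappaB transcription factors and regulators, 5 passed lower and 2 higher, with a median log2 change of -0.32. Irf7 and Irf9, both activators of interferon-stimulated genes, fell by 1.26 (adjusted p = 0.00621 from edgeR) and 0.77 (adjusted p = 0.00677 from edgeR). Tnfaip3, an inhibitor of NF-kappaB signalling, was higher, with 3775, 3140 and 1724 normalized counts in TKO and 710, 823 and 997 in DKO retinae (log2 change 1.77, adjusted p = 0.00733 from edgeR).

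In whole retina, fewer cells of a type and less RNA per cell cannot be told apart, so markers of the cells that make or receive chemokines are given beside the ligands. Summed normalized counts of 16 microglia markers were 1997 to 3479 in TKO and 4072 to 6308 in DKO retinae, 1.95 times higher in DKO on average. Of the 16, 7 passed lower and 0 higher, among them Ptprc at -1.51, Fcrls at -1.73 and Csf1r at -1.03, for which edgeR's adjusted p was 0.00821, 0.00821 and 0.0135. Csf1r did not pass when TKO replicate 2 or DKO replicate 1 or 2 was omitted (at most 0.0638). P2ry12 and Tmem119, which define resting microglia and were picked after their values were seen, were at 0.035 and -0.35 on the log2 scale (edgeR's adjusted p 0.945 and 0.470). No marker of this list was at 0. The part of microglia in the ligands' decrease was not tested.

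Per 1000 normalized counts of the summed microglia markers, Cxcl10 had 6.32, 2.08 and 6.00 in TKO and 21.4, 9.30 and 53.6 in DKO retinae. On this scale the groups did not overlap, and the ratio of means, DKO over TKO, was 5.86, or 3.20 without DKO replicate 3. Ccr1 did not overlap either, with a ratio of 6.04 that was 3.02 without DKO replicate 3. Both ratios thus rested in part on that retina. Ccl3 and Ccl5 did not overlap, with ratios of 1.94 and 2.21, the latter 1.47 without TKO replicate 1. Ccl4 overlapped, with a ratio of 1.38 that ran from 0.997 without TKO replicate 3 to 2.70 without TKO replicate 2. Ccl12 and Ccl2 overlapped too, since DKO replicate 2 had 4.16 and 0.416 on this scale, against a highest TKO value of 5.74 and 0.705. Their ratios were 3.78 and 11.1, or 1.68 and 4.71 without DKO replicate 3, and that of Ccl12 was 5.81 without TKO replicate 1. That of Ccl2 was 7.39 without TKO replicate 2. Cxcl9, with at most 6 counts in a library, also overlapped. Cx3cl1, Cxcl12 and Cxcl16 went the other way on this scale, with ratios of 0.482, 0.506 and 0.533, and for Cx3cl1 every TKO retina was above every DKO retina. Their own levels differed little, so these ratios follow from the divisor, the marker sum, which was 1.95 times higher in DKO on average. They say nothing further about these ligands. Cx3cr1 had 79.8 to 100 in TKO and 97.1 to 106 in DKO retinae, with overlapping groups and a ratio of 1.11. No test was run on these ratios.

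**Figure D4:**
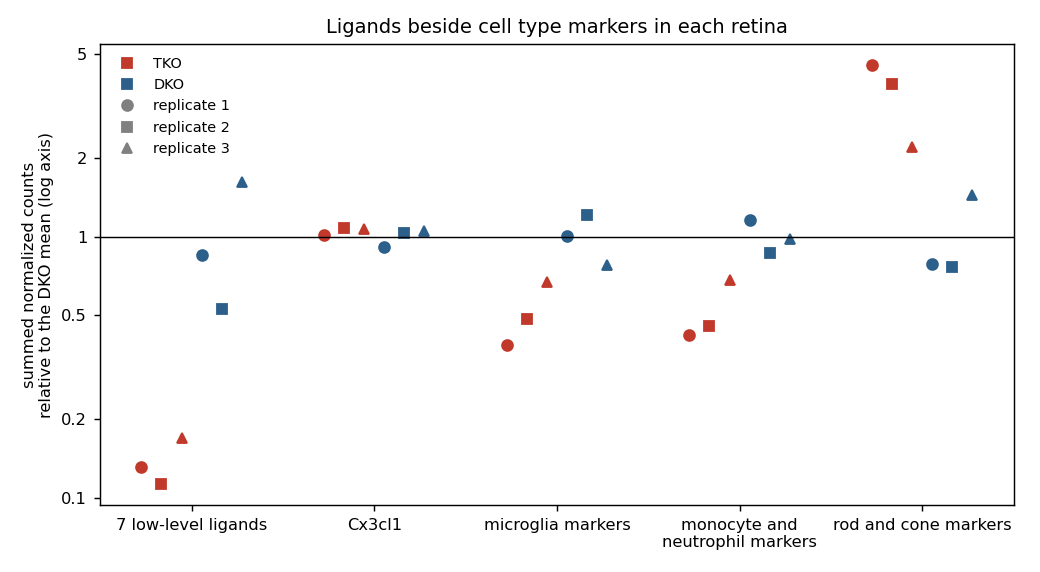
Summed normalized counts of the 7 low-level ligands, of Cx3cl1 and of 3 marker lists in each retina, relative to the mean of the DKO retinae (logarithmic axis), with TKO in red and DKO in blue. The 7 ligands and the microglia and monocyte markers lie below 1 in each TKO retina, and rod and cone markers lie above it.

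Monocyte and neutrophil markers summed to 1083 to 1765 in TKO and 2246 to 2982 in DKO retinae. Of 14 listed, 8 were tested and 2 passed lower, Lyz2 at -2.17 (adjusted p = 0.0237 from edgeR) and Ms4a7 at -3.001 (adjusted p = 0.0203 from edgeR), both of which are also expressed by macrophages. Each lost its pass in 3 of the 6 fits with 1 retina omitted, Lyz2 for TKO replicate 2 and DKO replicates 1 and 2 (at most 0.0985) and Ms4a7 for TKO replicates 1 and 2 and DKO replicate 2 (at most 0.0848). Of the 8 tested, 3 reached the minimum of 10 counts only with their DKO counts, so they could hardly have passed higher. Of the 14, 3 had 0 counts in each library, Elane and Mpo among them, and the others had counts. T and NK cell markers summed to 3774 to 4498 in TKO and 3019 to 3968 in DKO retinae, a sum made up mostly of Thy1, which ganglion cells also express. Of 14 of them in the table, 5 were tested and 1, Cd4, passed lower (log2 change -2.05, adjusted p = 0.0416 from edgeR). The median log2 change of the 5 was 0.18, and only 2 of the 5 were below 0. Of the 5, 1 reached the minimum of 10 counts only with its DKO counts. Cd4 passed only when replicate 3 of either group was omitted (otherwise at most 0.140). Of the 14 T and NK cell markers in the table, 2 had 0 counts in each library, Cd3e and Gzmb, and the others had counts. Cd3e marks T cells and Gzmb their cytotoxic granules. Cxcr3 and these 2 markers were thus at or near 0 in both groups, which does not extend to the whole list.

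Vascular markers summed to 5869 to 7330 in TKO and 5831 to 7565 in DKO retinae, with 0 of 10 lower and 1 higher. Of 10 Muller glia and astrocyte markers, 1 passed lower and 3 higher, including Glul (1.15, adjusted p = 0.00548 from edgeR), and their sums were 67960 to 69569 in TKO and 50108 to 60165 in DKO retinae. Gfap, with a log2 change of -1.46, did not pass (adjusted p = 0.0566 from edgeR), but did when TKO replicate 3 was omitted (0.0328). Ganglion, amacrine and horizontal cell markers, from neurons that express Cx3cl1 among others, had 0 of 12 passing in either direction, and their sums were 26718 to 30145 in TKO and 25720 to 27744 in DKO retinae. Bipolar markers had 2 of 8 higher (16993 to 23332 against 14856 to 17409). Rod and cone markers had 8 of 11 higher, and their sums were 316681 to 655402 in TKO and 110314 to 208708 in DKO retinae. RPE, lens and blood markers had 4 of 9 tested higher (698 to 3771 against 128 to 679), highest in TKO replicate 2. The part of any of these lists in the ligand values was not tested.

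**Figure D5:**
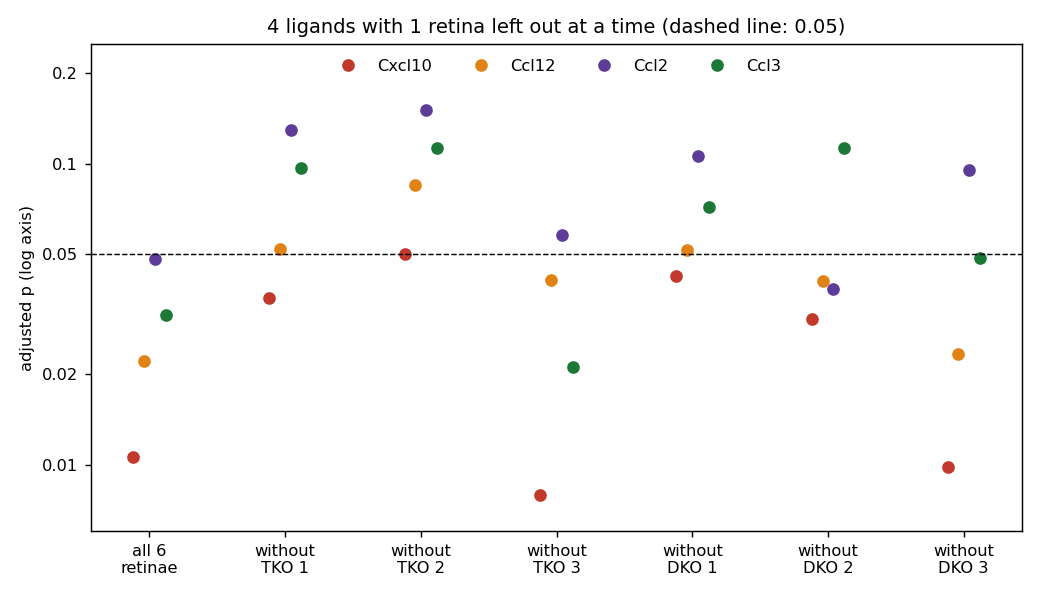
Adjusted p from edgeR (logarithmic vertical axis) of Cxcl10, Ccl12, Ccl2 and Ccl3 with all 6 retinae and with each retina left out in turn. The dashed line marks 0.05. Without TKO replicate 2 none of the 4 lies below the line.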

How the data were processed

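RNA-seq libraries from 6 retinae were compared, 3 per genotype, grouped by their labels. The deposited values are raw counts of read pairs per gene symbol, without normalization. The paper's methods name STAR and HTSeq on GRCm38 with at most 3 alignments per read, whereas the submitters' processing notes name TopHat2 and featureCounts. Which made the deposited counts is not known here, and multiply aligned reads and strand may have been treated differently. Counts were 10343907 to 14203098 per library.

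Genes with a sum of at least 10 were tested with edgeR 4.0.16 in R 4.3.3 (TMM, quasi-likelihood F test, Benjamini-Hochberg adjustment over 16904 genes). The thresholds for a call were those of the study, whose tool, DESeq2 (1.42.0 here), was an alternative. Standard errors are the log2 fold change over the square root of F, and 95% intervals use the fit's degrees of freedom. Ratios of few counts have exact binomial intervals (scipy 1.17.1). The test was checked on simulated counts. Genes of 16 lists were described by counts and medians, with no set test. Named genes were the ligands, their receptors, called ligands and receptors, and of other lists those among the 3 highest means or 3 smallest adjusted p-values, not all of which are reported here. The ligands and lists were chosen with earlier results of these data known. Coordinates and exon lengths come from GENCODE M21, which holds 22750 of the 24062 symbols. No 2 libraries of a group were duplicates, as chi-square over its degrees of freedom was 8.61 to 25.3 between them.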

Additional observations from a re-analysis of the deposited data

How the results depend on the processing

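The number of ligands called lower, 3, was 0 with at least 10 counts required in every library, since the 7 inducible ligands were then not tested, and 0 at an adjusted p of at most 0.01. It was 1 with glmTreat against a fold change of 1.5, with Cxcl10 the one left. It was 2 or 3 with DESeq2, with another scaling or filter, and with robust dispersions. The number that passed, 4, was 0, 0 and 1 under the same 3 settings. With 1 retina left out, 0 to 3 ligands were called and 0 to 4 passed. Both counts were 0 when TKO replicate 2 was omitted, and 1 when TKO replicate 1 or DKO replicate 1 was. No ligand was higher under any alternative, and Hells passed under each.

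With the replicate number as a block, 1 ligand was called and 1 passed, and among all genes 75 were called lower and 15 higher. After group means were taken off, retinae of equal number correlated at 0.052, -0.045 and -0.16, so the numbers pair nothing.

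For all genes called lower in TKO the number was 741 and for all genes called higher in TKO 333. These were 983 and 247 with library totals only, 292 and 129 at an adjusted p of at most 0.01, 319 and 125 with glmTreat, 1496 and 1225 without a minimum fold change, and 312 to 1024 and 121 to 476 with 1 retina left out.

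Signs turned for genes with fold changes near 0. Cx3cl1 was -0.083, Rbl1 -0.036 and P2ry12 -0.12 with library totals only. Cxcl16 was 0.0047 with the replicate block. With 1 retina left out, Cxcl16 ran from -0.14 (DKO replicate 1) to 0.21 (DKO replicate 3), and 0.025 for TKO replicate 2. Cxcl12 ran from -0.085 to 0.048, turning positive when TKO replicate 3 or DKO replicate 3 (0.037) was omitted. Rbl1 ran from -0.15 to 0.36, and it was -0.0016 when DKO replicate 1 was omitted. Ackr3 ran from -0.44 to 0.015, and P2ry12 from -0.22 to 0.22, with -0.060 and -0.041 when TKO replicate 2 or 3 was omitted. The causes were not tested.

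Ccl2, Ccl3, Ccl4, Ccl5 and Cxcl9 had fewer than 10 counts in each TKO library, and their intervals are wide at this depth. Ratios to microglia markers with 1 retina left out were added after the data were seen.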
